A study of Bos taurus with 16 samples.

Results

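The adenylyl cyclase family was described across round and sirloin muscle of newborn calves. Its 9 membrane-bound members, ADCY1 to ADCY9, were found among the 34109 listed genes by matching NCBI gene IDs to their RefSeq symbols, and all 9 were matched. The family was chosen by the diet values of ADCY6 in round muscle, where the control and treated calves stood apart, so the diet values of the members in round muscle are given as a description with no test, and the same holds for the difference of the ADCY6 diet values between the muscles. The diet comparison in sirloin was not used in that choice, but its libraries come from the same calves. The round values of ADCY6 also enter its comparisons between the muscles, so those tests are not independent of the choice.

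RNA was sequenced in 16 libraries from 8 neonatal male Hanwoo calves (Bos taurus), with 1 round and 1 sirloin library from each calf. The 4 control calves were born to cows fed 100% of their nutritional requirement, and the 4 treated calves to cows fed 150% of it during mid to late pregnancy. Both muscles were taken right after birth, all cows were Hanwoo kept alike before insemination, and the feeding level was the only designed difference. The 8 animals limit each diet comparison to 4 calves against 4. Replicates 1 to 4 of a diet were taken as the same calves in both muscles, because their numbers match in the sample names, which do not name a calf.

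Adenylyl cyclases make cyclic AMP (cAMP) from ATP when receptors activate the stimulatory G protein, and cAMP then acts mainly through protein kinase A. The members differ in what else controls them. ADCY1, ADCY3 and ADCY8 are stimulated by calcium with calmodulin, ADCY2, ADCY4 and ADCY7 by G protein beta-gamma subunits, ADCY5 and ADCY6 are inhibited by calcium and by inhibitory G proteins, and ADCY9 is the least sensitive to forskolin. In skeletal muscle the cAMP pathway is best known as a route by which hormones act on growth and glycogen use.

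Library totals ran from 44473011 to 72446933 counts. The tissue label held against its markers, since 10 of 10 skeletal muscle fibre markers were present in every group and together reached 71390 to 124000 TPM. TPM is a level per transcript length, scaled to nearly the same sum in each library, so that genes can be compared. Some libraries stood apart. In the sirloin library of treated replicate 4 the 5 adipocyte markers summed to 3777 TPM, against 0.730 to 14.99 TPM in the other 15 libraries. In the round library of control replicate 2 the 5 fibroblast markers summed to 1471 TPM, against 148 to 614 TPM in the others. The libraries of control replicate 2 were also the deepest of each muscle. Several diet values are given below also without these libraries. The 4 red blood cell markers summed to 2.93 to 14.9 TPM in round control, 8.43 to 29.8 TPM in round treated, 2.99 to 10.8 TPM in sirloin control and 11.2 to 26.9 TPM in sirloin treated libraries. All 4 had diet log2 fold changes above 0 in both muscles (medians 1.18 in round and 1.26 in sirloin), and 0 of 4 passed edgeR's test. The 6 leukocyte markers were above 0 by diet in sirloin (6 of 6, median 1.05, 0 passed) and summed to 5.19 to 9.22 TPM in control and 6.81 to 52.5 TPM in treated libraries. No marker was at 0 throughout a group in these 2 lists, and their part in the values of ADCY6 was not tested. In bulk tissue, fewer cells of a type and less RNA per cell cannot be told apart.

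Levels of the family were dominated by 2 genes. ADCY2 had the highest mean level over the 16 libraries, at 77.2 ± 21.2 TPM (SD), and its lowest and highest libraries were at 52.1 and 125 TPM. ADCY6 followed at 32.8 ± 15.6 TPM, with a range from 12.5 to 59.8 TPM. ADCY2 lay above ADCY6 in 15 of 16 libraries, the exception being the sirloin library of treated replicate 4. By mean TPM the pair stood at the 96.5th and 92.6th percentile of all listed genes.

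ADCY9 came next at 10.4 ± 3.77 TPM, followed by ADCY4 at 4.15 ± 1.23 TPM. ADCY6 was above ADCY9 in 16 of 16 libraries, ADCY9 above ADCY4 in 14, and ADCY4 above ADCY3 in 16. The low members were ADCY3 (1.39 ± 0.601 TPM), ADCY7 (0.793 ± 0.790 TPM) and ADCY5 (0.591 ± 0.246 TPM). ADCY3 was above ADCY7 in 14 libraries, whereas ADCY7 was above ADCY5 in only 8 of 16, so this last pair had no order. ADCY1 and ADCY8 were nearly absent. ADCY1 had a mean of 0.0261 TPM and at most 32 counts in a library, and ADCY8 had a mean of 0.0129 TPM and at most 10 counts. The ranges of ADCY5 and ADCY1 did not overlap, while every other pair of neighbours in this order overlapped in range.

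**Figure D1:**
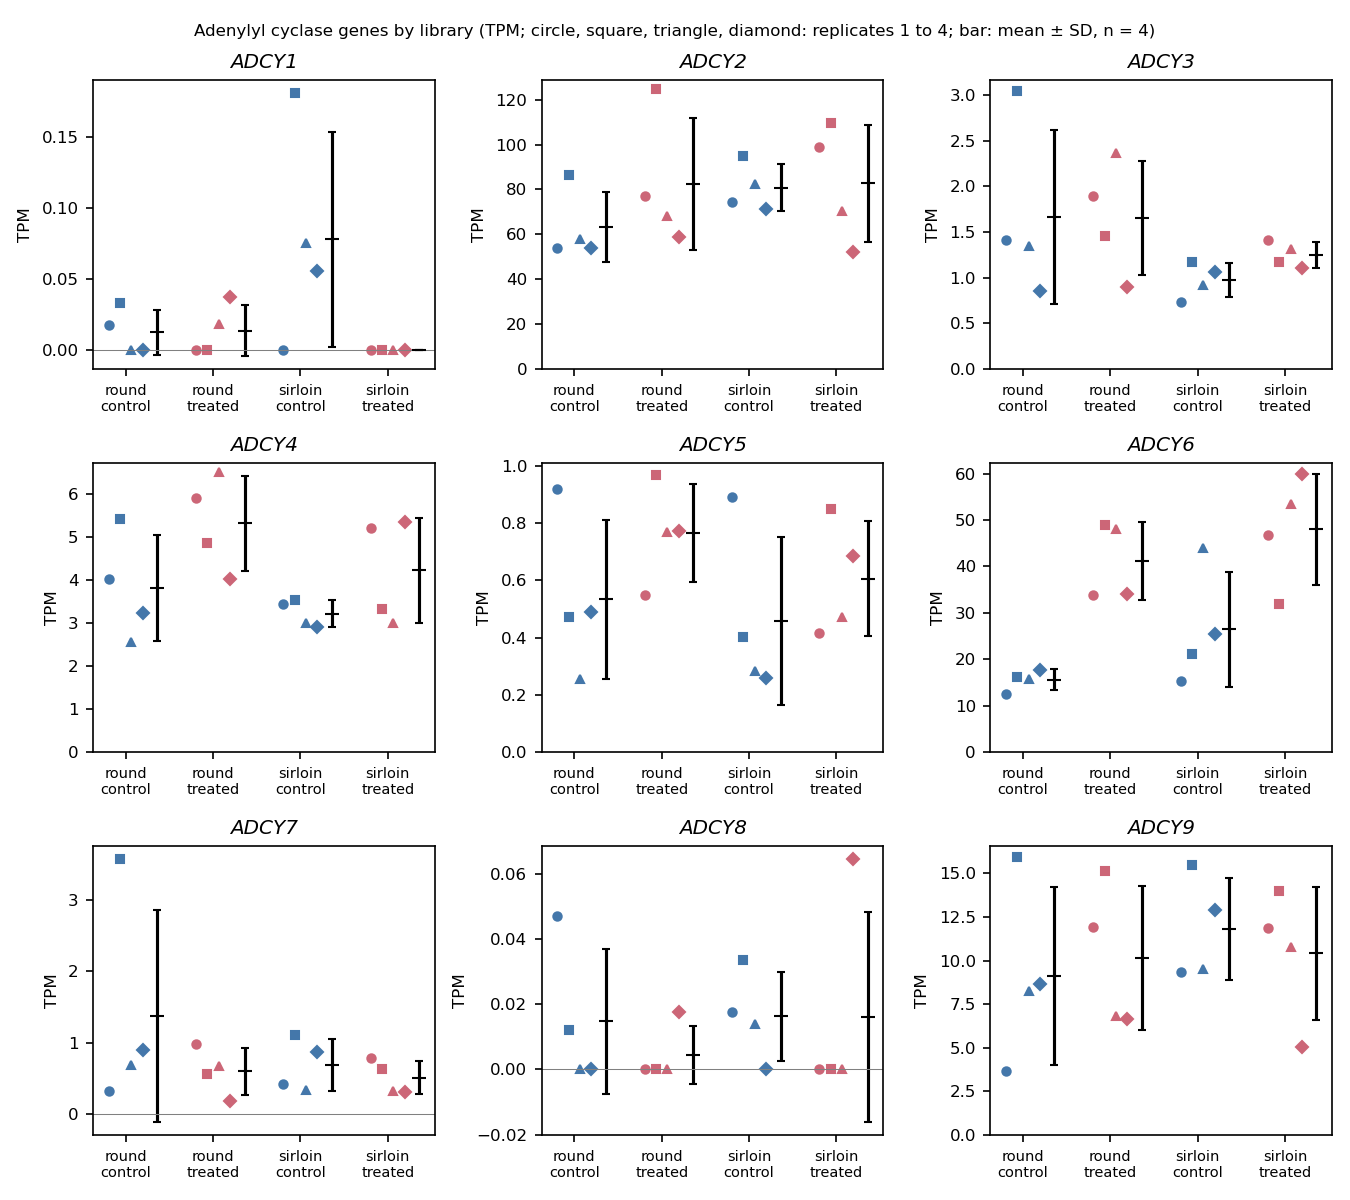
Level of each adenylyl cyclase gene (y axis, TPM, a separate linear scale in each panel) in the 4 groups (x axis), with 1 point for each library and the mean ± SD of 4 calves beside them. ADCY6 is the only panel in which all 4 round treated libraries lie above all 4 round control libraries, at 33.7 to 49.0 TPM against 12.5 to 17.8 TPM.

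ADCY6, one of the calcium-inhibited members, was the gene that led to the choice of the family. In round muscle of control calves it was at 12.5, 16.2, 15.8 and 17.8 TPM in replicates 1 to 4. In round muscle of treated calves it was at 33.7, 49.0, 48.0 and 34.1 TPM. The lowest treated library was 1.90 times the highest control library, so these groups did not overlap. The group means were 15.6 ± 2.23 and 41.2 ± 8.41 TPM (SD, n = 4), a ratio of 2.65. On TMM-normalised counts the log2 fold change of treated over control was 1.30 with a standard error (SE) of 0.224, and it stayed between 1.19 and 1.41 when each calf was left out in turn. It was the only 1 of 9 members whose diet groups did not overlap in round muscle. Groups without overlap were found in 1.82% of the 21677 genes tested there, and in 0.826% with the treated calves higher. Since these values chose the gene, nothing is read from them.

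The sirloin libraries were not used in that choice, though they come from the same calves. ADCY6 in sirloin of control calves was at 15.3, 21.1, 43.9 and 25.4 TPM, and in sirloin of treated calves at 46.8, 32.0, 53.3 and 59.8 TPM. Here the groups overlapped, because control replicate 3 lay above treated replicate 2. The other 3 treated libraries were above every control library. The group means were 26.4 ± 12.3 and 48.0 ± 11.9 TPM (SD, n = 4), a ratio of 1.82. The log2 fold change was 0.69 (SE 0.330). By edgeR's quasi-likelihood test the unadjusted p was 0.0625. With Benjamini-Hochberg adjustment over all genes the adjusted p was 0.876, so the difference did not pass the test. Over the alternatives tried, among them leaving out each calf, the unadjusted p ran from 0.00342 to 0.149 and the adjusted p from 0.822 to 1.00. Without the fat-rich treated replicate 4 the log2 fold change was 0.56 and the ratio of means 1.67. Without control replicate 3, picked after the values were seen, they were 1.07 and 2.33, and the adjusted p was 0.939. The log2 fold change ran from 0.52 to 1.07 when each calf was left out in turn.

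The diet difference of ADCY6 was 0.59 larger in round than in sirloin on the log2 scale (SE 0.400), a value that was not tested for the reason given above. The 4 control calves lay close together in round (SD 2.23 TPM), whereas the same calves were spread more widely in sirloin (SD 12.3 TPM). Within calves, ADCY6 was lower in round than in sirloin in 7 of 8. The differences of log2 CPM (counts scaled to the normalised library total), round minus sirloin, were -0.26, -0.46, -1.43 and -0.31 in control replicates 1 to 4. In treated replicates 1 to 4 they were -0.33, 0.65, -0.04 and -0.66. The mean over the 8 calves was -0.35 ± 0.58 (SD), and an exact two-sided sign-flip permutation test gave p = 0.125 (adjusted over the 9 members, 0.281), where the smallest p that 256 sign flips allow is 0.00781. The edgeR contrast of round against sirloin gave a log2 fold change of -0.42 (SE 0.200, adjusted p = 0.792).

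**Figure D2:**
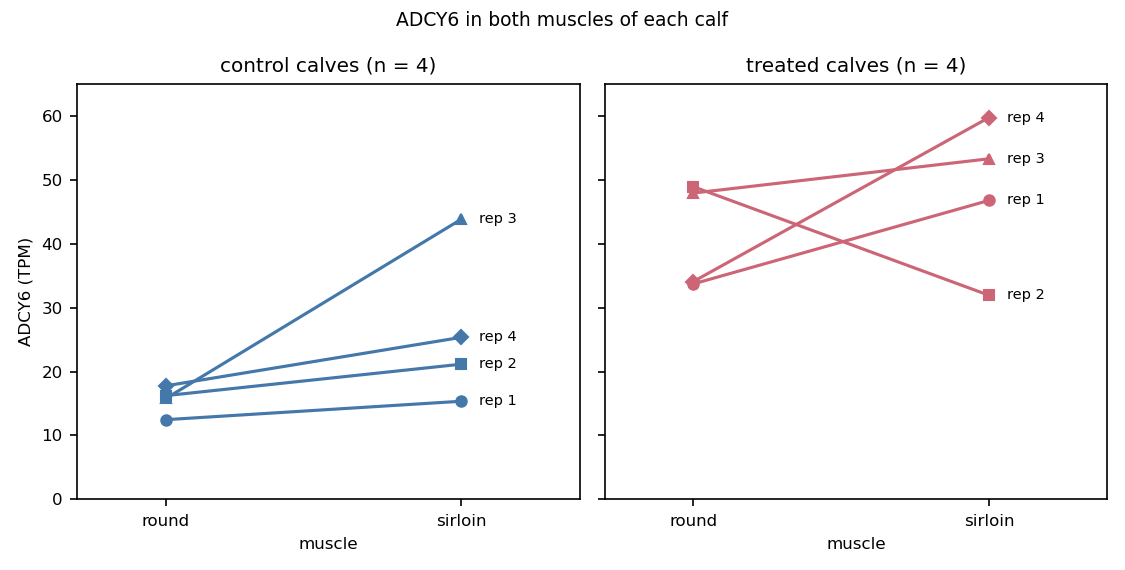
ADCY6 level (y axis, TPM from 0) in round and sirloin muscle (x axis), with a line joining the libraries of 1 calf, for the 4 control calves on the left and the 4 treated calves on the right. All 4 control calves have the higher value in sirloin, with the widest gap in replicate 3 (15.8 against 43.9 TPM), whereas treated replicate 2 has the lower value there (49.0 in round against 32.0 TPM).

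The make-up of the family followed these levels. The summed level of the 9 members was 95.3 ± 24.4 TPM in round control, 142 ± 38.8 TPM in round treated, 124 ± 17.6 TPM in sirloin control and 148 ± 19.1 TPM in sirloin treated libraries (SD, n = 4). ADCY6 took 16.8 ± 3.51% of that sum in round control and 29.7 ± 5.36% in round treated libraries. In sirloin its share was 20.8 ± 7.70% in control and 33.6 ± 12.2% in treated libraries. The sirloin difference of 12.8 percentage points had p = 0.143 by an exact two-sided permutation test over 70 splits, of which the smallest possible p is 0.0286. It ranged from 7.94 to 17.4 points when a calf was left out, and was 7.94 points without treated replicate 4.

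ADCY2 took the largest share in 15 of 16 libraries. Its mean share was 66.5% in round control, 57.2% in round treated, 65.2% in sirloin control and 55.0% in sirloin treated libraries. The ratio of ADCY6 to ADCY2 in TPM ran from 0.188 to 0.329 in round control, from 0.392 to 0.702 in round treated, from 0.206 to 0.532 in sirloin control and from 0.292 to 1.15 in sirloin treated libraries. In round muscle the ratios of the diets did not overlap, and in sirloin they did. The round ratios hold the ADCY6 values that chose the family, so nothing is read from their separation. ADCY9 made up 9.12, 7.03, 9.54 and 6.91% of the sum in the same order of groups.

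**Figure D3:**
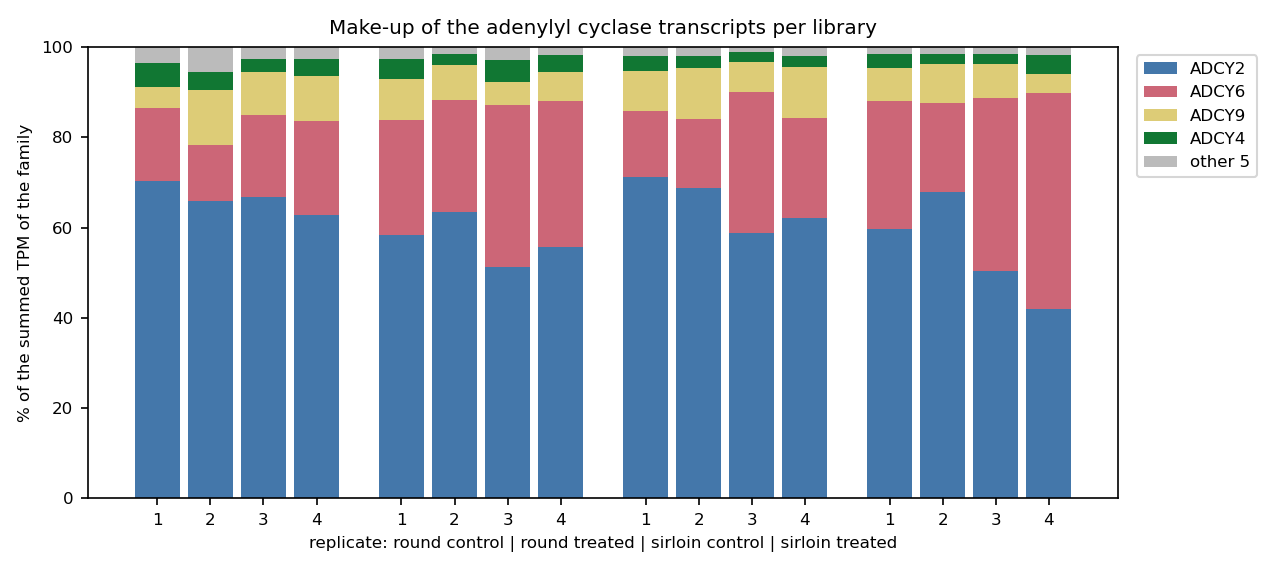
Share of each main member in the summed TPM of the family (y axis, %, stacked to 100) in each of the 16 libraries (x axis, replicates 1 to 4 in 4 groups). ADCY2 and ADCY6 fill most of every bar, and the ADCY6 part ranges from 12.4% in round control replicate 2 to 48.0% in sirloin treated replicate 4.

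The members stimulated by G protein beta-gamma subunits showed no common pattern with diet. ADCY2 in round muscle was at 54.1, 86.4, 58.2 and 53.9 TPM in control and 77.2, 125, 68.4 and 58.9 TPM in treated libraries. In sirloin it was at 74.4, 94.8, 82.5 and 71.2 TPM in control and 98.7, 109, 70.5 and 52.1 TPM in treated libraries. The groups overlapped in both muscles, with log2 fold changes of 0.29 (SE 0.249) in round and -0.15 (SE 0.243) in sirloin. Without control replicate 2 the round value was 0.35, and without treated replicate 4 the sirloin value was 0.02. All 4 control calves had less ADCY2 in round than in sirloin, by 0.21 to 0.46 on the log2 CPM scale, whereas 3 of 4 treated calves had more. The edgeR test of that difference without the calf pairing gave an interaction log2 value of 0.41 (SE 0.336, adjusted p = 1.00). With the calf as a block the edgeR value was 0.43 (SE 0.200, unadjusted p = 0.0540), and neither fit passed after adjustment.

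ADCY4 ran from 2.57 to 5.44 TPM in round control and from 4.03 to 6.53 TPM in round treated libraries, and from 2.91 to 3.54 TPM and 3.01 to 5.36 TPM in the corresponding sirloin groups. Its log2 fold change by diet was 0.45 (SE 0.268) in round and 0.14 (SE 0.250) in sirloin, and -0.02 in sirloin without treated replicate 4. ADCY7 was at 0.329, 3.57, 0.693 and 0.904 TPM in round control libraries and at 0.978, 0.558, 0.681 and 0.187 TPM in round treated libraries. Its high value was in the fibroblast-rich round library of control replicate 2. The diet log2 fold change of ADCY7 in round was -1.26 (SE 0.641), and -0.38 without that calf. The part of fibroblast RNA in this value was not tested. In sirloin ADCY7 was between 0.305 and 1.10 TPM in all 8 libraries.

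The calcium-stimulated members were low. ADCY3, which is expressed in many tissues, was at 1.41, 3.05, 1.35 and 0.851 TPM in round control libraries, with the highest value again in control replicate 2, and at 1.89, 1.46, 2.37 and 0.903 TPM in round treated libraries. In sirloin it was between 0.732 and 1.17 TPM in control and between 1.11 and 1.41 TPM in treated libraries. Its diet log2 fold changes were -0.06 (SE 0.400) in round and 0.19 (SE 0.284) in sirloin. Without control replicate 2 the round value was 0.24, and it ran from -0.29 to 0.24 when each calf was left out in turn. ADCY1, best known from the nervous system, had 0, 32, 12 and 6 counts in the sirloin control libraries and 0 in all 4 sirloin treated libraries. Since control replicate 1 was also at 0, the groups overlapped. Against a floor of 3 counts over the treated group (0.0128 CPM), ADCY1 was at least 17.7-fold lower there than the 0.227 CPM of the pooled control libraries, and 32 of the 50 control counts came from control replicate 2. Without that library, a choice made after seeing the data, the 18 remaining counts (0.123 CPM) gave a bound of at least 9.57-fold lower. This difference had an unadjusted p of 0.00595 and an adjusted p of 0.876 by edgeR. In round muscle ADCY1 had 9 counts in all control and 8 in all treated libraries. ADCY8 had 8 and 2 counts in round and 10 and 10 in sirloin, with all 10 of the sirloin treated counts in replicate 4, so no difference was detectable at this depth.

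ADCY5 is the closest paralog of ADCY6 and is the other calcium-inhibited member. It was at 0.918, 0.472, 0.255 and 0.490 TPM in round control and 0.550, 0.970, 0.770 and 0.773 TPM in round treated libraries. In sirloin it was at 0.890, 0.402, 0.283 and 0.259 TPM in control and 0.416, 0.849, 0.470 and 0.686 TPM in treated libraries. The groups overlapped in both muscles through control replicate 1. Its diet log2 fold changes were 0.39 (SE 0.440) and 0.18 (SE 0.480). Without control replicate 1, a choice made after seeing the data, they were 0.84 and 0.79. When each calf was left out in turn they ran from 0.16 to 0.84 in round and from -0.02 to 0.79 in sirloin. ADCY9, which stands alone in the family, ran from 3.64 to 15.95 TPM in round control and from 6.64 to 15.2 TPM in round treated libraries. In sirloin it ran from 9.36 to 15.5 TPM and from 5.07 to 14.0 TPM. Its diet log2 fold changes of 0.06 (SE 0.372) and -0.36 (SE 0.297) went with groups that overlapped in both muscles. They were 0.32 in round without control replicate 2 and -0.12 in sirloin without treated replicate 4.

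In sirloin 0 of 9 members passed the edgeR test by diet, with a lowest adjusted p of 0.876, and 1 of 9 (ADCY1) had an unadjusted p under 0.05. DESeq2 and limma-voom called 0 members as well. Over all genes tested in sirloin the percentage called was 0.00918, and 3.91 had an unadjusted p under 0.05. Diet groups without overlap occurred in 0 of 9 members there, against 1.63% of all genes. The median log2 fold change of the members was -0.12 in sirloin and 0.06 in round, beside 0.03 and 0.02 over all genes.

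**Figure D4:**
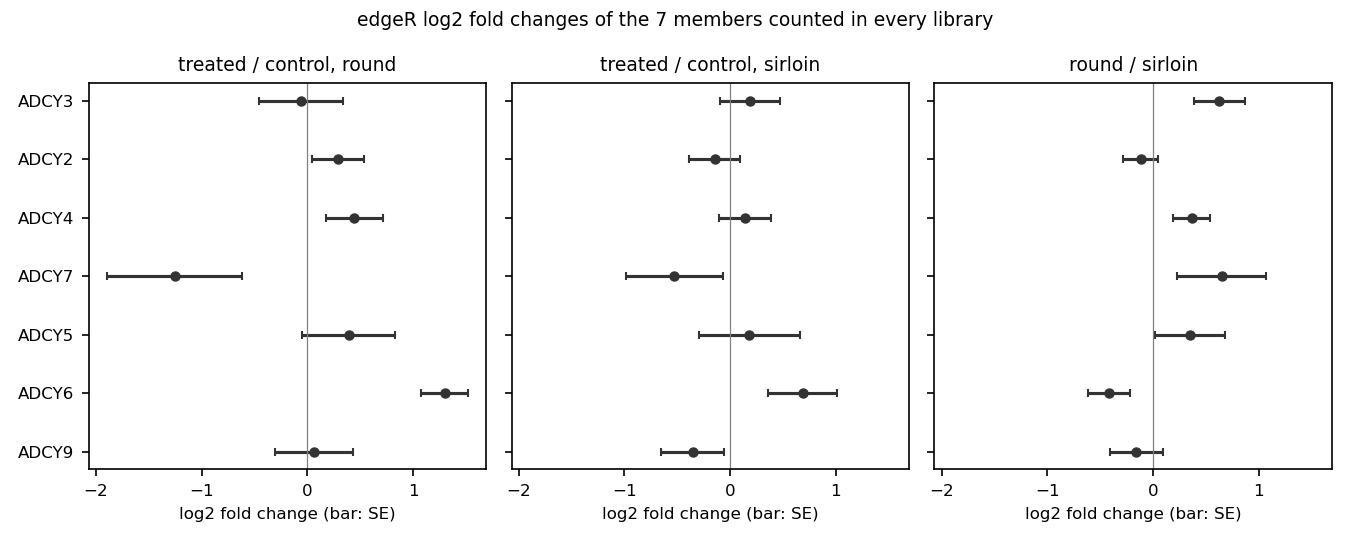
Log2 fold change (x axis, point) with its SE (bar) of the 7 members counted in every library (y axis) for treated over control in round, the same in sirloin, and round over sirloin. ADCY6 has the highest diet value in both muscles, at 1.30 and 0.69, and a value below 0 (-0.42) for round over sirloin, where ADCY3, ADCY4, ADCY5 and ADCY7 lie above 0. The round diet panel is a description, since it chose ADCY6.

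Between the muscles, 0 of 9 members passed the edgeR test, with a percentage called of 0.0612 over 22877 genes, and 1 of 9 had an unadjusted p under 0.05, as did 6.33% of all genes. That member was ADCY3, with a log2 fold change of 0.63 for round over sirloin (SE 0.239, unadjusted p = 0.0174, adjusted p = 0.707). With the calf as a block, ADCY3 was at 0.55 (adjusted p = 0.246), ADCY6 at -0.35 (adjusted p = 0.458) and the percentage called over all genes was 0.476. Within calves ADCY3 was higher in round in 6 of 8, by 0.54 ± 0.51 on the log2 CPM scale (SD), and the exact sign-flip permutation test gave p = 0.0313 (adjusted 0.141). ADCY5 was higher in round in 7 of 8 calves, by 0.38 ± 0.39 (p = 0.0234 by the same exact permutation test, adjusted 0.141). ADCY4 was higher in round in 6 of 8 calves and ADCY7 in 5 of 8. A shared sign in 7 or more calves was seen in 12.3% of all genes, and here in 2 of 9 members, ADCY5 and ADCY6.

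For the difference of the diet values between muscles, 0 of the 8 members tested passed edgeR's test, the percentage called over all genes was 0.0, and 2.78 had an unadjusted p under 0.05. ADCY1 was the member with an unadjusted p under 0.05, at 0.0164, with the counts described above. DESeq2 called 0 members, and its count over all genes was 0, with 290 at an unadjusted p under 0.05.

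Over the 16 libraries the paralogs did not follow ADCY6 closely. Pearson's r of log2 CPM with ADCY6 was 0.21 for ADCY4, 0.01 for ADCY2, -0.02 for ADCY5, -0.13 for ADCY3, -0.14 for ADCY9 and -0.51 for ADCY7. Among 12314 genes with a mean of at least 1 CPM, the 5 with the highest r were CSNK1B (0.84), MYBL2 (0.84), ACAD10 (0.83), CNNM3 (0.83) and SH3YL1 (0.82). MYBL2 is a transcription factor of the cell cycle, CNNM3 belongs to a family of magnesium transport proteins, and ACAD10 to the acyl-CoA dehydrogenases. Since the ADCY6 pattern they were picked to match includes its diet difference, a like difference in these genes is built in by the choice. By Spearman's rho 3 of these 5 were among the top 5, and 1 of 5 was after the 4 group means were taken out. The 16 libraries come from 8 calves and 2 diets, so r is a description of likeness.

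The rest of the pathway was read from 8 lists with 108 genes, of which 100 were tested by diet in each muscle and 102 between muscles. By diet 0 of 100 passed edgeR's test in round (0 higher and 5 lower at an unadjusted p under 0.05) and 0 of 100 in sirloin (4 higher and 6 lower), beside 0.0185 and 0.00918 percent of all genes called and 4.41 and 3.91 percent at an unadjusted p under 0.05. DESeq2 called 0 of these genes in both muscles. The median log2 fold change over the tested list genes was 0.01 in round and -0.04 in sirloin.

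Upstream of the cyclases, GNAS, the stimulatory G protein alpha subunit, was the most abundant gene of its list at a mean of 1250 TPM. Its range was 925 to 1869 TPM over all libraries. GNAI2, an inhibitory subunit, had a mean of 20.2 TPM. Of 7 alpha subunits 0 passed by diet in either muscle. Of 32 receptors that couple to the stimulatory G protein, 26 were tested by diet and 0 passed. Of these, CALCRL, the calcitonin receptor-like receptor, was at a mean of 4.89 TPM, with log2 fold changes by diet of -0.48 (SE 0.317) in round and -0.17 (SE 0.356) in sirloin.

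The list of other cyclases and regulators of cyclase was led by CAP2 at 147 TPM and CACYBP at 113 TPM. CAP2 encodes a cyclase-associated protein that binds actin, and CACYBP encodes calcyclin-binding protein, which despite its place in this list is not known as a regulator of adenylyl cyclase. Of its 14 genes 0 passed by diet. Of the phosphodiesterases that hydrolyse cAMP, 15 of 16 were tested and 0 passed by diet. PDE4D (38.6 TPM) and PDE7B (27.7 TPM) were the most abundant. Their log2 fold changes by diet were -0.47 (SE 0.391) and -0.09 (SE 0.305) in round, and -0.81 (SE 0.313) and -0.94 (SE 0.281) in sirloin. Without the fat-rich library the sirloin values were -0.88 and -1.03. None of these passed after adjustment.

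Downstream, PKIA, which encodes an inhibitor of protein kinase A, had a mean of 154 TPM and PRKAR2A, a regulatory subunit, 120 TPM. PKIA was at 214 ± 19.9 TPM in round control, 154 ± 40.2 TPM in round treated, 149 ± 29.1 TPM in sirloin control and 101 ± 25.3 TPM in sirloin treated libraries (SD, n = 4). Its log2 fold changes by diet were -0.57 (SE 0.247) in round and -0.75 (SE 0.255) in sirloin. By edgeR the unadjusted p was 0.0407 and 0.0136, and the adjusted p was 0.864 and 0.876. The diet groups of PKIA overlapped in both muscles. For round over sirloin its log2 fold change was 0.64 (SE 0.175, adjusted p = 0.438). The other effectors of cAMP were led by POPDC3 (27.3 TPM) and BVES (21.3 TPM), 2 cAMP-binding membrane proteins of striated muscle. The A-kinase anchoring proteins were led by AKAP1 (71.9 TPM) and AKAP8L (60.4 TPM), and of each of these lists 0 genes passed by diet.

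The CREB family and its coactivators were led by ATF1 (34.4 TPM) and CREM (25.0 TPM), which encode transcription factors that respond to cAMP. CREM ranged from 13.3 to 82.2 TPM in round control and from 3.23 to 18.3 TPM in round treated libraries, and from 7.61 to 65.7 TPM and from 4.68 to 19.2 TPM in the corresponding sirloin groups. The log2 fold changes were -1.61 (SE 0.567) and -1.59 (SE 0.586). By edgeR the unadjusted p was 0.0153 and 0.0203, and the adjusted p was 0.864 and 0.876. The diet groups of CREM overlapped in both muscles.

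The 4 list genes that were higher in sirloin at an unadjusted p under 0.05 were ADRB3, LHCGR, PDE3B and PRKAR2B, named here after their values were seen. All 4 had their high value in the sirloin library of treated replicate 4, where the adipocyte markers were high. PDE3B was at 22.3 TPM there and between 0.150 and 0.551 TPM in the other 15 libraries, and PRKAR2B was at 32.4 TPM there. Without that calf the sirloin log2 fold change of PDE3B was 0.35 in place of 4.56, and that of PRKAR2B was -0.07 in place of 2.68. With that calf left out, 1 list gene was higher and 6 were lower at an unadjusted p under 0.05, of 98 tested. Over all genes in the same fit, 671 of 21349 had an unadjusted p under 0.05. ADCY6 was also highest in that library, at 59.8 TPM, and the part of adipocyte RNA in that value was not tested. In sirloin treated replicates 1, 2 and 3 the adipocyte sums were 4.59, 0.730 and 2.20 TPM, and ADCY6 was at 46.8, 32.0 and 53.3 TPM.

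**Figure D5:**
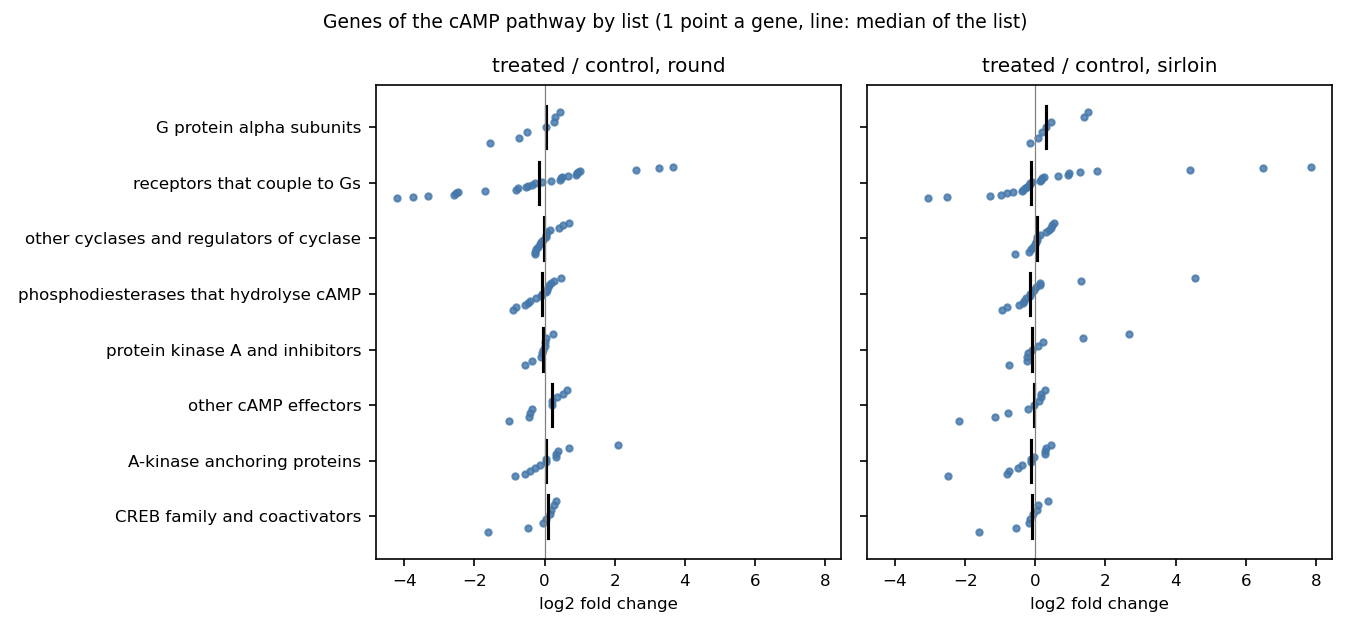
Log2 fold change of treated over control (x axis) of each tested gene of the 8 cAMP pathway lists (y axis), in round on the left and sirloin on the right, with a line at the median of each list. List medians lie between -0.16 and 0.29, and the widest points belong to receptors, a list with many low counts. In sirloin these are LHCGR (7.86) and ADRB3 (6.51). Nearly all of their sirloin counts were in treated replicate 4, at 139 and 416.

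Between muscles 0 of 102 list genes passed edgeR's test, beside 0.0612% of all genes, with a lowest adjusted p of 0.347, for AKAP8. DESeq2 called 1 of 97 list genes, AKAP8 (log2 fold change -0.64 for round over sirloin, adjusted p = 0.0445), beside 84 of all 22568 genes. The edgeR fit with the calf as a block called 1 of 102, PDE7A (-0.57, adjusted p = 0.0286), beside 109 of all 22877 genes (0.476%). Both were named after their values were seen.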

How the data were processed

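Total RNA of round and sirloin muscle was sequenced. The authors deposited read counts per gene and TPM values per gene for every library. The submitters' processing notes name FastQC, Trimmomatic, STAR, featureCounts and DESeq2 with the build ARS-UCD1.2, whereas the paper's methods name HISAT2, Bowtie2 and StringTie, and the sources also differ on poly(A) selection or depletion of ribosomal RNA and globin. Which of these made the files is not given in the sources used here. Deposited tables of the authors' own comparisons, with fold changes, were not used.

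The members and gene lists were chosen with earlier results of these data known. The named genes were all 9 members, the 2 most abundant genes and any called gene of each pathway list, and the 5 genes most correlated with ADCY6. One named item is not reported here. NCBI gene IDs were paired with RefSeq symbols for 30762 of 34109 genes (90.2%). The table's assembly is not the submitters' build, so no coordinates are given.

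Counts were analysed with edgeR 4.0.16 (R 4.3.3): TMM, quasi-likelihood test, genes with at least 1 count in any library of the fit, two-sided, Benjamini-Hochberg over all genes, threshold 0.05. Diet was tested within each muscle, and the muscle contrast and its interaction with diet over all 16 libraries in 4 groups. SE was |log2 fold change| divided by the root of the F statistic. Within-calf differences used log2 CPM with a prior count of 2. Alternatives were DESeq2 1.42.0, limma-voom 3.58.1, other normalisations and filters, a replicate block and leaving out each calf. The scripts were tested on simulated data in which 200 genes were changed by 2 on the log2 scale. There edgeR recovered 56.5% of them by diet in round, 61.5% in sirloin, 78% between muscles and 40.5% for the interaction. Smaller changes were not simulated. A difference that did not pass is therefore not shown to be absent. In the same 4 comparisons edgeR made 16, 10, 5 and 5 false calls. DESeq2 recovered 75% by diet in round and 76% in sirloin, with 54 and 65 false calls.

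The muscles were paired by calf from matching numbers in the sample names, which do not name a calf. Deviations of the 2 libraries paired in this way correlated at 0.311 to 0.765 in all 8 pairs. The lowest value was that of treated replicate 4. Depth was 44473011 to 72446933 counts, and ADCY1 and ADCY8 had at most 32 and 10 counts in a library. The floor of 3 counts covers counting error only.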

Additional observations from a re-analysis of the deposited data

Results flagged for a closer look

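Of 35 groups of 4 libraries examined for 1 value far from the rest, 3 held one, and chance alone gives about 1 in 20. That rate does not apply to the 2 ADCY8 groups among them, where 3 of 4 libraries were at 0 and any value above 0 in the other would stand apart. ADCY2 was at 86.4 TPM in the round library of control replicate 2, where the other 3 round control libraries were at 53.9 to 58.2 TPM. This is the deepest library and the one with the highest fibroblast markers, and the part of either in this value was not tested. ADCY8 was at 0.0177 TPM (2 counts) in the round library of treated replicate 4 and at 0.0645 TPM (10 counts) in the sirloin library of the same calf, with 0 counts in the other 3 libraries of each group. The sirloin library was the one with 3777 TPM of adipocyte markers.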

How the results depend on the processing

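Of 165 member fits under other settings, leaving out diet in round, 163 kept their direction, 2 turned and 0 of those tested passed the threshold. Of 216 without 1 calf, 206 kept their direction, 10 turned and 0 of those tested passed. Both counts include the ADCY6 fits for the diet difference between muscles, which were not tested and were judged by the size of their shift. ADCY1 for round over sirloin was -0.14 and ADCY8 for the diet difference between muscles 0.0212 by limma-voom. Without 1 calf at a time, the log2 ranges that crossed 0 in sirloin by diet were -0.29 to 0.0191 for ADCY2, -0.0232 to 0.25 for ADCY4, -0.0224 to 0.79 for ADCY5 and -4.26 to 0.46 for ADCY8. In round by diet, given as a description, they were -1.22 to 0.57 for ADCY1, -0.29 to 0.24 for ADCY3 and -0.18 to 0.32 for ADCY9. Between muscles ADCY8 ran from -1.73 to 0.0237, and for the diet difference between muscles ADCY8 ran from -2.51 to 0.0435 and ADCY3 from -0.49 to 0.00. The within-calf difference of ADCY1 ran from -0.61 to 0.0577. These turns were of values near 0 or of genes with few counts. The order of the levels kept 7 to 9 members at their rank.

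The count of all genes called by diet in round was 4 by edgeR, 45 by DESeq2, 1 by limma-voom and 0 to 3 without 1 calf. In sirloin it was 2 by edgeR, 13 by DESeq2, 0 by limma-voom (682 at an unadjusted p under 0.05) and 0 to 1 without 1 calf. Between muscles it was 14 by edgeR, 84 by DESeq2 and 13 to 19 without 1 calf. The causes were not tested. The replicate block by number across diets gave 2 genes in round and 0 in sirloin (463 at an unadjusted p under 0.05), but equal numbers do not pair calves of different diets (correlations -0.28 to 0.29). The calf as a replicate block gave 109 genes between muscles and 1 for the diet difference between muscles, where edgeR without it gave 0 (637 at an unadjusted p under 0.05), and changed no call of a member. The stricter expression filter drops ADCY1 and ADCY8, which then have no value. Sequences were not analysed here.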
